A study of Homo sapiens with 2 samples.

Results

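Receptors of the tumor necrosis factor (TNF) superfamily were examined in H2228 cells with and without interleukin 4 (IL4). The set held 10 receptor genes, TNFRSF1A, TNFRSF1B, TNFRSF9, TNFRSF10A, TNFRSF10B, TNFRSF10D, TNFRSF11B, TNFRSF12A, TNFRSF21 and FAS, of 19775 genes measured. The 10 genes were chosen by name, with earlier results of these arrays known. All 24 probe sets that the array annotation assigns to 1 of these genes alone were used, of 54675 probe sets in all. H2228 cells come from a human lung adenocarcinoma and harbor EML4-ALK variant 3, which both cultures therefore have. One culture was given IL4, and the series description states 100 ng/mL for 30 min. The other culture was not treated. RNA of each was hybridized to 1 Affymetrix Human Genome U133 Plus 2.0 array. The sample labels also mention a 48 h transfection (plasmids or siRNAs of EML4-ALK, or controls), and no label says whether these cultures were transfected. With 1 array per condition there are no replicates, no test was possible, and each difference below is one between 2 arrays of 1 cell line.

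Most of these receptors bind trimeric ligands at the cell surface. TNFRSF1A, TNFRSF10A, TNFRSF10B, TNFRSF21 and FAS have a death domain in the cytoplasmic tail. Most receptors with a death domain can assemble adaptors that activate caspase 8 and apoptosis, or pass a signal to NF-kB. Those without one (TNFRSF1B, TNFRSF9 and TNFRSF12A) recruit TRAF proteins and signal mainly to NF-kB and MAP kinases. TNFRSF10D, whose death domain is truncated, and the secreted TNFRSF11B bind the ligand TRAIL without passing on a death signal and are called decoy receptors. Epithelial cells commonly carry TNFRSF1A, FAS and the TRAIL receptors.

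Most of the death domain receptors were higher with IL4, and the decoy receptors were not. Values are the deposited log2 values per probe set, a difference is IL4 minus untreated, and each gene is represented by its brightest probe set (highest mean over both arrays). With IL4, 6 of 10 genes had values at least 1.5-fold above those of untreated cells and 0 of 10 had values that far below, whereas of all genes 3.21% were higher and 4.39% were lower by that much. With only probe sets at or above the median level, 6 of 9 receptor genes were higher and 0 were lower. TNFRSF9 was among the 9 only through its IL4 value. Of the 12949 genes left at that level, 4.34% were higher and 5.88% were lower. The median log2 difference was 0.65 over the 10 receptor genes and 0 over all genes. By role, 4 of 5 death domain receptors were higher (median difference 0.66), 2 of 3 receptors that bind TRAF proteins were (median difference 1.002), and 0 of 2 decoy receptors were (median difference -0.15). Among these, TNFRSF9 and TNFRSF11B rest on dim probe sets. An alternative added after the values were seen took each gene from its probe set brightest in untreated cells. Then 5 of 10 genes were higher and 1 of 10 was lower, against 3.08% and 4.56% of all genes. The TRAF binding receptors then had 1 of 3 higher and a median of 0.36. The genes had been proposed with results of these arrays known, so the counts describe them and are no independent evidence of a direction. Whether the cells held more RNA per cell or the culture held more cells of one state cannot be told apart in bulk RNA.

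**Figure D1:**
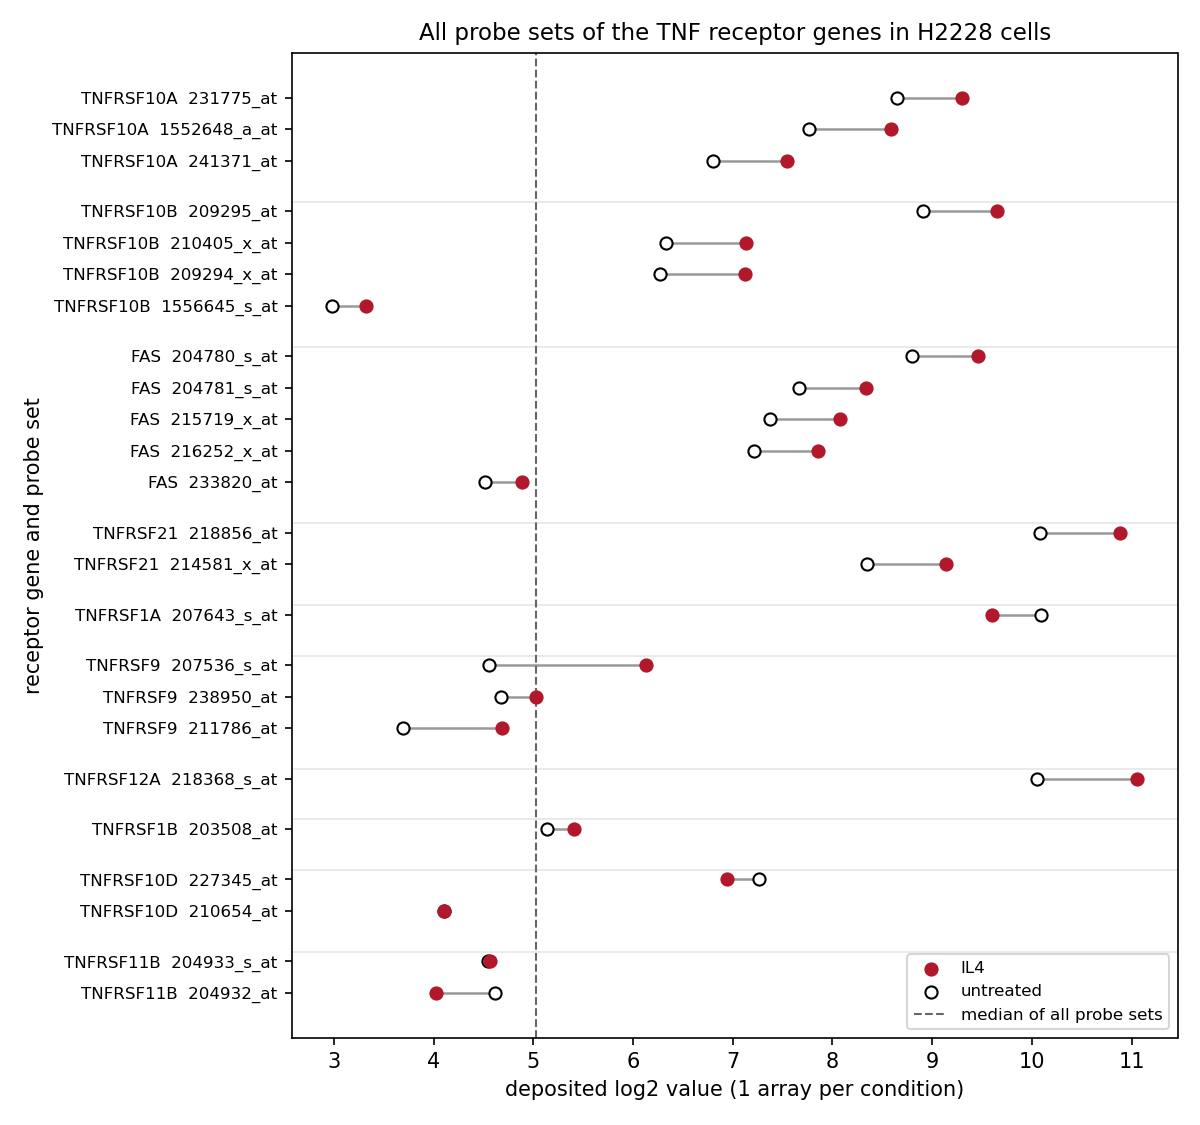
Deposited log2 values (x axis) of all 24 probe sets of the 10 receptor genes (rows, grouped by gene) with IL4 (filled circles) and in untreated cells (open circles), 1 array each; the dashed line is the median of all probe sets, 5.03. The probe sets of TNFRSF10A, TNFRSF10B, FAS and TNFRSF21 to the right of that line were all higher with IL4, by 0.64 to 0.85, whereas TNFRSF1A and the brighter TNFRSF10D probe set were lower.

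Both TRAIL receptors that carry a death domain were higher with IL4. TNFRSF10A, which binds TRAIL and triggers apoptosis, reached 9.30 with IL4, against 8.65 in untreated cells, on probe set 231775_at, a difference of 0.65 or 1.57-fold. Its other 2 probe sets gave larger differences, 0.82 (8.59 with IL4, 7.77 in untreated cells) and 0.74 (7.54 with IL4, 6.80 in untreated cells). All 3 probe sets of TNFRSF10A therefore passed 1.5-fold. TNFRSF10B, the second death receptor for TRAIL and a known target of p53, had 9.65 with IL4 and 8.90 in untreated cells on 209295_at, a difference of 0.74 or 1.68-fold. Probe sets 210405_x_at and 209294_x_at of TNFRSF10B, of a design that can bind several transcripts, had differences of 0.80 and 0.85. The fourth, 1556645_s_at, was far dimmer than the median probe set, with 3.32 with IL4 and 2.98 in untreated cells, and its difference was 0.34. The 3 bright probe sets of TNFRSF10B spanned 0.10 in their differences, and those of TNFRSF10A spanned 0.17. Over 6056 genes with at least 2 probe sets at or above the median level, the differences of the 2 brightest were compared. The gap between them had a standard deviation of 0.25, which is not the same measure as a span over 3 probe sets. That spread is one between probe sets of the same arrays and not between cultures.

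The decoy receptors for TRAIL did not share this. TNFRSF10D had 6.94 with IL4 and 7.26 in untreated cells on 227345_at, a difference of -0.31. Its other probe set, 210654_at, is listed at the same value, 4.10, with IL4 and in untreated cells. TNFRSF11B, which encodes osteoprotegerin, a soluble trap for RANKL and TRAIL, was dim on both of its probe sets. It had 4.56 with IL4 and 4.55 in untreated cells on 204933_s_at, a difference of 0.014. On 204932_at it had 4.03 with IL4 and 4.62 in untreated cells, a difference of -0.59 that is past 1.5-fold, so the TNFRSF11B probe sets do not give 1 answer. The difference of TNFRSF10A exceeded that of TNFRSF10D by 0.96 on the log2 scale, and the difference of TNFRSF10B exceeded it by 1.06. In the RefSeq table of GRCh38.p14, TNFRSF10B, TNFRSF10C, TNFRSF10D and TNFRSF10A are consecutive protein-coding genes on chromosome 8. The 2 outer genes of this row were higher with IL4. TNFRSF10C, another decoy receptor and not one of the 10 genes, had 5.29 with IL4 and 5.47 in untreated cells, and the differences of its 4 probe sets ran from -0.17 to 0. The ligand itself, TNFSF10 (TRAIL), had 8.98 with IL4 and 8.87 in untreated cells, a difference of 0.11.

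FAS, the receptor for Fas ligand and another known p53 target, was the gene with most probe sets. On 204780_s_at it had 9.46 with IL4 and 8.80 in untreated cells, a difference of 0.66 or 1.58-fold. The next probe set, 204781_s_at, had 8.33 with IL4 and 7.67 in untreated cells, a difference of 0.67. Probe sets 215719_x_at and 216252_x_at had differences of 0.70 and 0.64. These 4 probe sets spanned only 0.056, but all are of designs that can bind several transcripts. The fifth, 233820_at, was dimmer than the median probe set, with 4.88 with IL4 and 4.51 in untreated cells, and its difference was 0.37. FASLG, the ligand, was dim in both conditions, with 3.99 with IL4 and 4.04 in untreated cells.

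TNFRSF21 is also known as death receptor 6 and in mice restrains T helper cell responses. By the brightest probe set of each gene, it had the largest difference of the death domain receptors. Other bright probe sets of TNFRSF10B and TNFRSF10A had larger differences, up to 0.85 and 0.82. TNFRSF21 had 10.89 with IL4 and 10.08 in untreated cells on 218856_at, a difference of 0.81 or 1.75-fold. Its second probe set, 214581_x_at, had 9.14 with IL4 and 8.34 in untreated cells, a difference of 0.80. Of all genes, 353 had a difference at least as high as that of TNFRSF21 (1.79%), and the shares for TNFRSF10B, FAS and TNFRSF10A were 2.10%, 2.63% and 2.75%.

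TNFRSF1A, the main receptor for TNF on most cells, went the other way. Its single probe set, 207643_s_at, had 9.60 with IL4 and 10.10 in untreated cells, a difference of -0.50 or 1.41-fold lower, which does not reach 1.5-fold. Of all genes, 1237 (6.26%) had a difference at least as low. TNFRSF1B, the TNF receptor without a death domain, which is found mainly on immune and endothelial cells, had 5.41 with IL4 and 5.13 in untreated cells, a difference of 0.28. Both values lie just above the level of the median probe set. The differences of TNFRSF1B and TNFRSF1A were 0.78 apart. TNF was dim, with 4.28 with IL4 and 4.11 in untreated cells.

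**Figure D2:**
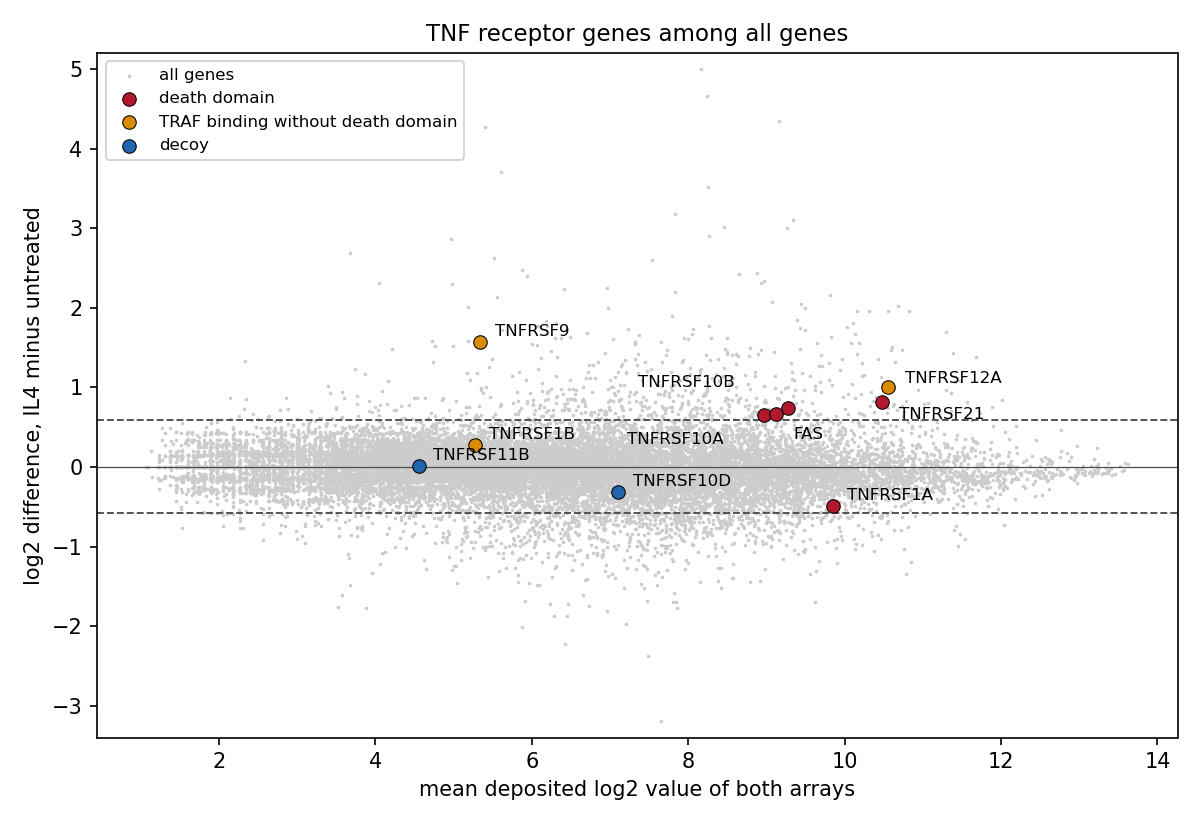
Log2 difference between IL4 and untreated cells on the y axis and mean deposited log2 value on the x axis, with all 19775 genes as grey points and the 10 receptor genes coloured by role; dashed lines mark 1.5-fold. The higher death domain receptors and TNFRSF12A lie at high mean values between 0.65 and 1.002, TNFRSF9 lies at 1.57 with a mean near the median level and a dim untreated value, and TNFRSF1A lies at -0.50.

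Among the receptors without a death domain, TNFRSF12A was higher on a bright probe set, and TNFRSF9 was higher on probe sets that were dim in untreated cells. TNFRSF12A, the receptor for TWEAK, known as a gene that growth factors induce quickly, had 11.06 with IL4 and 10.05 in untreated cells on its single probe set, 218368_s_at, a difference of 1.002 or 2.003-fold. Of all genes, 217 (1.10%) had a difference at least as high. TNFRSF9, a costimulatory receptor best known from activated T cells, had 6.13 with IL4 and 4.56 in untreated cells on 207536_s_at, a difference of 1.57 whose size is uncertain because the untreated value is under the level of the median probe set. In untreated cells this probe set was dimmer than 238950_at, and only its IL4 value made it stand for the gene. The other 2 probe sets of TNFRSF9 had means below the median level. On 211786_at it had 4.69 with IL4 and 3.69 in untreated cells, a difference of 0.998, and on 238950_at 5.03 with IL4 and 4.67 in untreated cells, a difference of 0.36. The 3 probe sets of TNFRSF9 thus share a sign but not a size. TNFSF9, the ligand of TNFRSF9, had 7.43 with IL4 and 7.32 in untreated cells.

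Counted over probe sets, 15 of the 24 were higher by 1.5-fold or more and 1 was lower by as much, against 3.34% higher and 3.26% lower over all probe sets. The 1 lower probe set was the dim 204932_at of TNFRSF11B. Of 10 genes, 9 had a standing probe set whose mean reached the median level, TNFRSF9 only through its IL4 value, and the exception was TNFRSF11B. Probe sets of 1 gene share the RNA and the array, so they are no replicates of the condition.

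Promoters are shown for members on both sides, 3 higher with IL4 and TNFRSF1A, which was not, because motifs of the factors that IL4 and TNF receptors signal to can be read there. RefSeq promoters (GRCh38.p14) matched 5 of the 10 genes by symbol, with 3 starts for FAS, and the 250 bases before the start are printed 5′ to 3′, for FAS those of the most upstream start. Capitals mark matches to 6 motifs, searched on both strands: TTCNNNGAA (STAT factors), the STAT6 form of it with 4 free bases in place of 3, GGNNTTTCC (NF-kB), TGACTCA (AP-1), GGGCGG (the GC box) and TATAAA (the TATA box).
TNFRSF9, chr1:7940840-7941089, minus strand: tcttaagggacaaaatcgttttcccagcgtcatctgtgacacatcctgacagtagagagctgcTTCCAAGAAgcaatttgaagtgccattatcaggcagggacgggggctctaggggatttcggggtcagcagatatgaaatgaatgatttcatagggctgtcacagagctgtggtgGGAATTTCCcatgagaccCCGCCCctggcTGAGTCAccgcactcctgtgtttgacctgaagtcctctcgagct
FAS, chr10:88990548-88990797, plus strand: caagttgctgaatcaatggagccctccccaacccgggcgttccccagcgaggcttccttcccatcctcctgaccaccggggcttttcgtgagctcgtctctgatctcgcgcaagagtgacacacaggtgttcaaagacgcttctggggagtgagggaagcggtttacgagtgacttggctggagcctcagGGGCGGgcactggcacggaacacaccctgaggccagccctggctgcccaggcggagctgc
TNFRSF21, chr6:47309906-47310155, minus strand: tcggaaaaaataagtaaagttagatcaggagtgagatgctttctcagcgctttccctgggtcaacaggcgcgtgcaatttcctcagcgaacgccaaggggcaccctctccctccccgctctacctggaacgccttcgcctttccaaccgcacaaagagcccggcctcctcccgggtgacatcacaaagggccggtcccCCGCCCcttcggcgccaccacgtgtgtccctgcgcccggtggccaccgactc
TNFRSF1A, chr12:6342077-6342326, minus strand: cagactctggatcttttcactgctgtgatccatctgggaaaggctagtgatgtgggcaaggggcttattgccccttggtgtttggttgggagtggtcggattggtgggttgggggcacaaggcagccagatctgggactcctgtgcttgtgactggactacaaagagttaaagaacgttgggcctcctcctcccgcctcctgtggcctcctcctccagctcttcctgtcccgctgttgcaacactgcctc
The TNFRSF9 promoter held a STAT match, TTCCAAGAA, an NF-kB match, GGAATTTCC, and an AP-1 match on the other strand, TGAGTCA, whose first bases lie 187, 73 and 44 bases before the start, and a GC box 55 bases before it. None of these overlap. Of all 35116 promoters of this length, 6.57% held the STAT motif, 5.48% the NF-kB motif, 4.20% the AP-1 motif and 42.6% a GC box. The other printed promoters held a GC box (FAS, TNFRSF21) or none of the motifs (TNFRSF1A), and TNFRSF1B, not printed, held 2 GC boxes that overlap. The STAT6 motif, in 5.38% of all promoters, and the TATA box, in 10.7%, matched none of the 5 members searched. The other 5 members, among them TNFRSF10A, TNFRSF10B and TNFRSF12A, were not searched. The promoters of TNFRSF21 and FAS held 20 and 14 CpG dinucleotides, those of TNFRSF9 and TNFRSF1A 7 and 4, against a median of 11. A match is a run of letters and was not tested for binding.

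On their standing probe sets, the rest of the family stayed within 1.5-fold. Of 18 other receptors measured, 0 were at least 1.5-fold higher and 0 lower, against 3.21% and 4.39% of all genes. Shares this low leave few or none of 18 genes to be counted. The median log2 difference of these receptors was 0.14. CD40, a costimulatory receptor named here after its values were seen, was the exception on other probe sets. It had 8.19 with IL4 and 7.99 in untreated cells on its standing probe set, a difference of 0.21. On 215346_at CD40 had 6.34 with IL4 and 5.56 in untreated cells, a difference of 0.78, and on 205153_s_at 6.19 with IL4 and 5.53 in untreated cells, a difference of 0.65, while its 4th probe set was tied. RELT, a receptor of lymphoid tissue, came closest, with 6.80 with IL4 and 6.23 in untreated cells, a difference of 0.57. TNFRSF11A, the receptor RANK, had 7.10 with IL4 and 6.59 in untreated cells, a difference of 0.50. Of these other receptors, 5 were below the median level in both conditions. Of 16 ligands measured, 1 was higher and 0 were lower, beside the same shares over all genes, and the median difference was 0.044. The 1 was CD70, the ligand of CD27, at 9.01 with IL4 and 8.41 in untreated cells, a difference of 0.60 or 1.51-fold.

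Genes that act below the receptors passed 1.5-fold mostly on the higher side. Of 26 measured genes of adaptors and death signalling, 6 were higher by 1.5-fold or more and 2 were lower. Over all genes these shares were 3.21% and 4.39%, so the count of 2 lower genes lies near the share over all genes. The median log2 difference of the 26 genes was 0.029. TRAF1, an adaptor induced by NF-kB, had 7.12 with IL4 and a dim 4.64 in untreated cells, a difference of 2.48, and 0.89 on its second probe set. CFLAR, which encodes FLIP, the inhibitor of caspase 8 at death receptors, had 11.10 with IL4 and 9.75 in untreated cells, a difference of 1.35 or 2.55-fold, and 9 of its 14 probe sets were higher. CYLD, a deubiquitinase that restrains NF-kB signalling, had 8.15 with IL4 and 6.91 in untreated cells, a difference of 1.23, and 3 of its 7 probe sets passed 1.5-fold. TRAF3, an adaptor that restrains noncanonical NF-kB signalling, had 9.06 with IL4 and 8.15 in untreated cells, a difference of 0.90, and MAP3K14 and BIRC2 were the other 2 higher genes. On the lower side, CASP8, an initiator caspase below death receptors, had 9.12 with IL4 and 9.74 in untreated cells, a difference of -0.62. The other CASP8 probe sets did not reach 1.5-fold. CASP6, an executioner caspase, had 8.36 with IL4 and 8.98 in untreated cells, a difference of -0.62, and its second probe set, at -0.54, did not reach 1.5-fold. The adaptors FADD and TRADD had differences of -0.010 and 0.13.

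**Figure D3:**
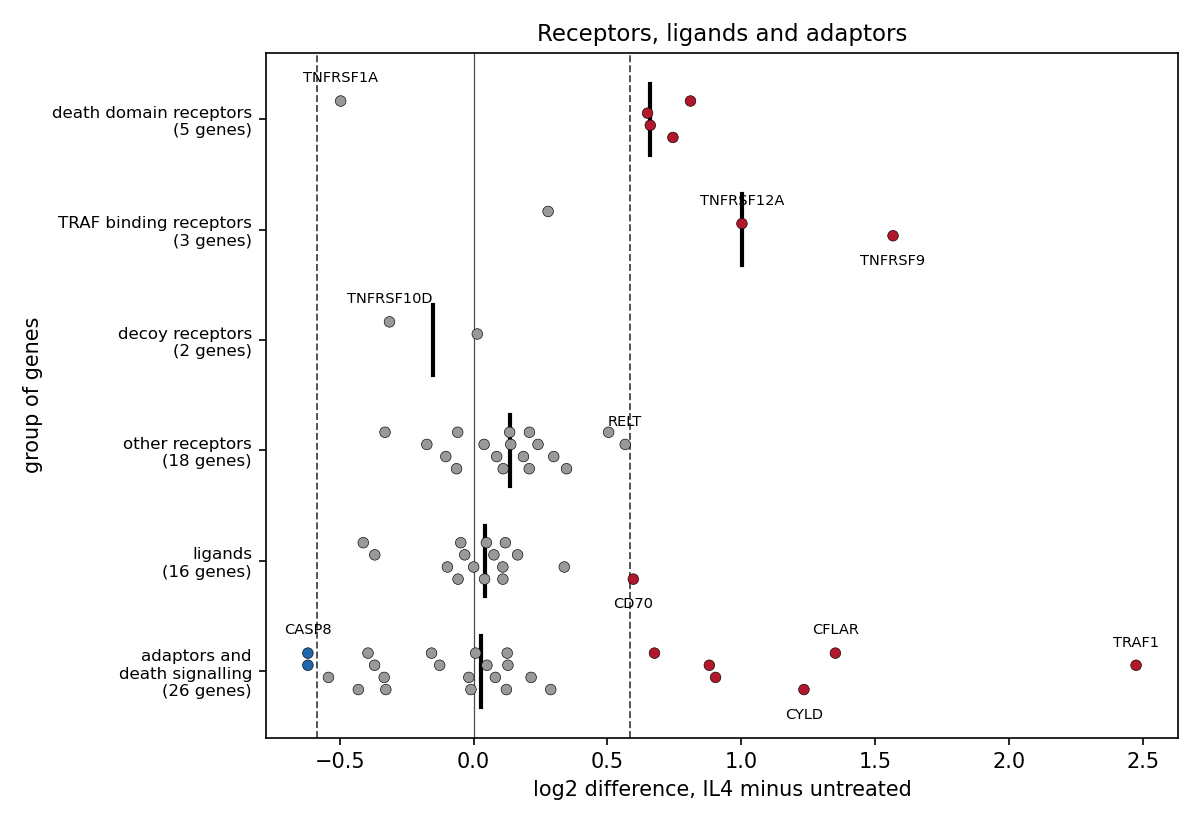
Log2 difference, IL4 minus untreated (x axis), of every measured gene in 6 groups (rows), 1 point each with vertical scatter only to separate points; black bars mark medians, red points genes at least 1.5-fold higher and blue points genes at least 1.5-fold lower. The medians of the death domain and TRAF binding receptors, 0.66 and 1.002, lie beyond the dashed 1.5-fold line, whereas those of the other receptors, ligands and adaptors lie between 0.029 and 0.14.

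Rescaling the arrays changed few of these values, whereas the fold level and the choice of probe sets changed more of the calls. A loess correction on the mean level, quantile normalization and the mean over probe sets left the same 6 genes higher. Centring could change no value, since the median difference was 0. At 2-fold, TNFRSF9 and TNFRSF12A remained, while 1.11% of all genes were higher. By the probe set brightest in untreated cells, TNFRSF9 had a difference of 0.36 and TNFRSF11B of -0.59. Without probe sets whose design can bind several transcripts, FAS had a difference of 0.37 and TNFRSF9 of 0.36, both from a dim probe set, and TNFRSF12A and TNFRSF1A had no value.

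**Figure D4:**
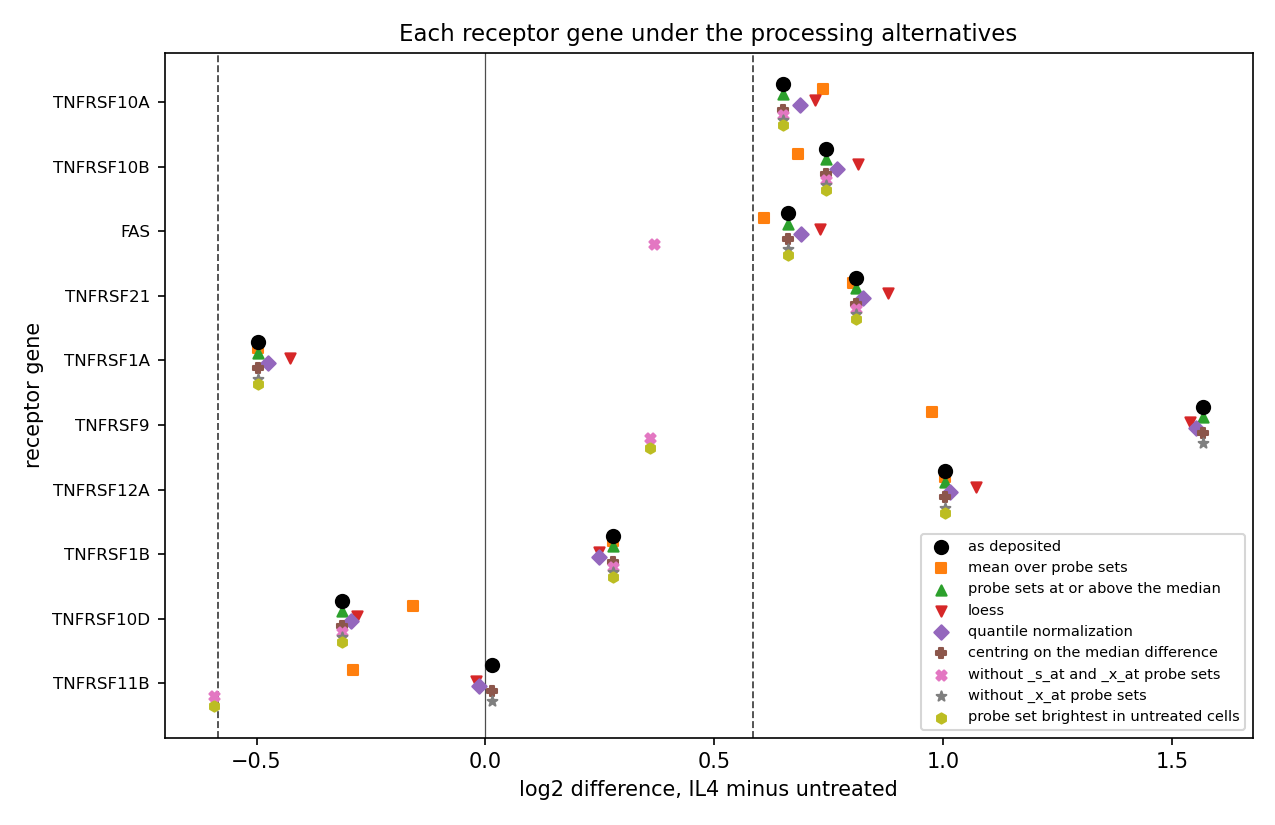
Log2 difference, IL4 minus untreated (x axis), of each receptor gene (rows) under 9 settings (symbols), with dashed lines at 1.5-fold. The symbols of TNFRSF10A, TNFRSF10B and TNFRSF21 stay beyond the line in every setting shown, while those of FAS and TNFRSF9 without _s_at and _x_at probe sets lie at 0.37 and 0.36. Centring, the floor at the median and leaving out only _x_at probe sets repeat the deposited values.

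The arrays themselves were close. The sources differ on how the values were made, since the processing notes name RMA and the study's methods name the Affymetrix GCOS software, and the 2 distributions are close but not identical, so the normalization is uncertain. The median value was 5.04 with IL4 and 5.00 in untreated cells, and 9 hybridization control probe sets had log2 differences of 0.0062 to 0.13. The change of the 3′ minus 5′ difference was -0.30 for ACTB and -0.015 for GAPDH. All 8 epithelial markers examined were at or above the median level in both arrays, with ELF3 2.55-fold lower with IL4 and CDH1 the 1 marker at least 1.5-fold higher. Of 6 leukocyte, 7 fibroblast and 6 endothelial markers, 0, 1 and 0 were higher and none were lower, and their summed linear levels were 197, 2546 and 195 with IL4, against 190, 1945 and 176 in untreated cells. The fibroblast sum was mostly COL1A1, at 11.23 with IL4 and 10.82 in untreated cells with 2 of its 5 probe sets at least 1.5-fold higher, and the 1 higher gene was COL3A1, at 4.45 with IL4 and 3.67 in untreated cells. The leukocyte marker PTPRC was at 2.37 with IL4 and 2.50 in untreated cells. The part of these markers in the receptor differences was not tested. IL4 and any other difference between the 2 cultures cannot be told apart.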

How the data were processed

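IL4-treated and untreated H2228 cells were each measured on 1 Affymetrix U133 Plus 2.0 array. The deposited table gives a log2 value for each probe set and array, made by the authors with RMA according to the submitters' processing notes, which state no version. The study's methods instead name GCOS, the Affymetrix software, so how the values were normalized is uncertain. No scanner files were used here, so background correction could not be repeated, and the number of arrays limits the precision. The genome build is not given in the sources used here. Of 41097 probe sets annotated to 1 gene, 41043 took their current symbol through the gene number in the RefSeq table (GRCh38.p14). The highest-mean probe set stood for a gene, with no filter on dim values. A gene was counted at 1.5-fold, without a test, beside the share over all genes. The 10 members and the gene lists were chosen with earlier results of these data known. Beyond them, each list contributes its 4 largest increases and its 4 largest decreases past 1.5-fold (or, with none, its 2 largest differences), provided the brighter array reached the median level. TNFRSF10C, ligands of the members, FADD, TRADD, MAP3K14 and BIRC2 are named for their roles or to complete a count. CD40 is named because 2 of its other probe sets passed 1.5-fold, a choice made after its values were seen. Some listed genes are not analysed here. The counting was tested on simulated data. Alternatives were a 2-fold level, the mean over probe sets, a floor at the median, loess (fraction 0.3), quantile normalization, centring, leaving out _x_at or both _s_at and _x_at probe sets, and, added after seeing the data, the probe set brightest in untreated cells. Python 3.11.15, numpy 2.4.6, pandas 2.3.3, statsmodels 0.14.6 and matplotlib 3.10.9 were used.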

Additional observations from a re-analysis of the deposited data

How the results depend on the processing

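Under the alternatives, 72 of 77 values of single receptor genes kept their side of 1.5-fold, and no gene past 1.5-fold changed sign. Many of the 77 could not change, so the count overstates stability. Centring (on a median difference of 0), leaving out only _x_at probe sets and the floor at the median repeated the deposited values wherever they gave one. Of the values that changed side, 3 came from leaving out both _s_at and _x_at probe sets. There FAS had 0.37 and TNFRSF9 had 0.36 because only dim probe sets were left, and TNFRSF11B had -0.59. The count of higher receptor genes was then 3 of 8 and that of lower ones 1 of 8, against 2.94% and 4.38% of 17100 genes. By the probe set brightest in untreated cells, TNFRSF9 had 0.36 and TNFRSF11B -0.59, with 5 of 10 higher and 1 of 10 lower. Of all genes, 3.08% were higher and 4.56% lower in that setting. At 2-fold, 2 receptor genes were higher, against 1.11% of all genes. TNFRSF11B, whose difference was 0.014, turned negative with loess, quantile normalization and the mean over probe sets. TNFRSF11B had no value with the floor at the median, and TNFRSF12A and TNFRSF1A had none without _s_at and _x_at probe sets. Over all genes, 635 were higher and 868 lower as deposited, 219 and 176 at 2-fold. Loess moved no value by more than 0.070. No paired analysis was possible because each condition has 1 array, and no replicate could be left out. Signal close to background limits TNFRSF9, TNFRSF11B and TNFRSF1B most.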

Other observations

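The deposited values hold exact ties between the arrays. Of 54675 probe sets, 4528 (8.28%) were listed at the same value with IL4 and in untreated cells, and 3674 of these lay below the median level. Among the receptor probe sets, 1 was tied, 210654_at of TNFRSF10D. A difference of 0 on a dim probe set is therefore common in this table. The source of the ties was not tested.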
